A study of Mus musculus with 9 samples.

Results

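Binding of the NF-κB subunits RelA and RelB was examined around the 9 genes Jun, Junb, Jund, Fos, Fosb, Fosl1, Fosl2, Atf3 and Batf, which encode subunits of the transcription factor AP-1. The genes were chosen by name, with earlier results of these data known. A peak was assigned to a gene when its centre lay within 50 kb of the gene's start site in the mm9 genome. All 9 genes were found among the 22380 protein-coding genes of the annotation. The chromatin came from mouse embryonic fibroblasts (MEFs) that lack both copies of Nfkb2, the gene for the NF-κB precursor and inhibitor p100, and every library carried this genotype. The cells had been immortalized by serial passage, so they are a cultured line and not a tissue. ChIP-seq libraries were made with antibodies against RelA or RelB, either before TNF (0 h) or 6 h after TNF was added at 10 ng/ml, in duplicate, which gave 2 libraries per group and 8 in all. Nothing in the labels says that the replicate libraries came from separate cultures, so their spread may be technical.

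AP-1 is a dimer of basic leucine zipper (bZIP) proteins. Jun proteins pair with themselves or with Fos proteins, Fos proteins need a Jun partner, and Atf3 and Batf pair with Jun proteins as well. The dimers bind the sequence TGANTCA, and some that hold an Atf subunit bind TGACGTCA. NF-κB dimers such as those of RelA or RelB with p50 bind a different element, the κB site. In fibroblasts TNF activates NF-κB through the kinase IKK2 and AP-1 through mitogen-activated protein kinases, and several AP-1 genes are themselves transcribed early after a stimulus.

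The sites that the results turn on are shown first. They are the 6 sites near these genes that every library called at 6 h, each with the match to the κB consensus that lies closest to the middle of the site. Each sequence has 30 bases of the mm9 genome, with the 10 matching bases in capitals.
Junb, downstream site, chr8:87500546-87500575, minus strand: gagtgcgccgGGGCTTTCCCcgctgacgtt
Junb, upstream site, chr8:87504924-87504953, plus strand: gaagaagctgGGGACATCCCagtctttgaa
Fosl1, nearer site, chr19:5432270-5432299, plus strand: cactgaggagGGAAACTCCCcacttctgtg
Fosl1, farther site, chr19:5430128-5430157, plus strand: gcccaaacttGGGAAATCCCcagagctcag
Fosl2, intron site, chr5:32442238-32442267, plus strand: gtaccaggctGGGACATTCCtcacatcaaa
Batf, intron site, chr12:87044650-87044679, plus strand: ccctccaattGGGGATTTCCcagaatgttc

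The match closest to the middle was not always inside the peaks themselves. In the Junb downstream site it lay inside the peak of 1 of the 4 libraries, whereas another match of the same site lay inside all 4. In the nearer Fosl1 site, the match above lay inside the peaks of 3 libraries and another inside those of all 4. In the Junb upstream site, the match above lay inside the peaks of 2 libraries and another, also shown, inside those of all 4. These other matches, and the site near Jun that had a peak in 3 libraries, follow and were chosen after their values were seen.
Junb, downstream site, chr8:87500458-87500487, plus strand: gcgggggggaGGGGATTCCCggaatctgcc
Junb, upstream site, chr8:87505021-87505050, plus strand: acagtctcaaGGGAGATTCCagaagccgct
Fosl1, nearer site, chr19:5432172-5432201, plus strand: cacgatttggGGGATTTTCCtagtaggcca
Jun, far upstream site, chr4:94767610-94767639, plus strand: tgtaaatcctGGGACTTTCCtgagtctgtg

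The peak lists held between 14 and 194 peaks at 0 h and between 5192 and 7052 peaks at 6 h. Reads in peaks were between 120352 and 162105 per library at 6 h, and the total number of reads per library was unknown. The lists hold only peaks that passed the authors' thresholds, so a gene with no peak is one where none was called. Strength is given as the log2 fold of ChIP reads over scaled input reads in the strongest window of a peak.

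No AP-1 gene had a peak at 0 h, and all 9 had at least 1 at 6 h. The 4 libraries at 0 h held 0 peaks within 50 kb of these genes, where 1.16% of protein-coding genes had a peak in any of them. At 6 h the RelA libraries held 12 and 11 such peaks and the RelB libraries 10 and 20, 53 in all. Over all protein-coding genes, 43.5% had a peak in any library at 6 h. Junb, Fosl1, Fosl2 and Batf, 4 of the 9 genes, had a peak in each of the 4 libraries at 6 h, where 12.4% of protein-coding genes did.

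The number of peaks per gene was compared between 6 h and 0 h over the 4 libraries of each time point. The antibodies were put together, since 2 libraries per antibody and time allow no test within an antibody. The 4 libraries are thus not 4 repeats of the same measurement. Junb had 2, 2, 2 and 5 peaks at 6 h (RelA replicates 1 and 2, then RelB replicates 1 and 2, the order used throughout), Fosl1 and Batf each had 3, 2, 2 and 2, and Fosl2 had 1 in each. These 4 genes reached p = 0.0286 in an exact two-sided permutation test, which is the smallest p that 4 libraries against 4 can give, and 12.2% of protein-coding genes reached it too. Jun, with 0, 3, 2 and 4 peaks, and Atf3, with 1, 0, 1 and 4, had an exact permutation p of 0.143. Jund and Fos had 1 peak in each of 2 libraries, with an exact permutation p of 0.429, and Fosb had 1 peak in 1 library, with an exact permutation p of 1. After Benjamini-Hochberg adjustment of the exact permutation p-values, 0 of the 22380 genes (0%) passed, against 2737 at an unadjusted p under 0.05, and the adjusted p of the 4 genes was 0.234. With this smallest p, most of the 22380 genes would have to reach it for any to pass, and only 43.5% had any peak at 6 h. The adjusted result was therefore fixed beforehand and says nothing about single genes. Any gene with a peak in every library at 6 h and none at 0 h reaches the smallest p.

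**Figure D1:**
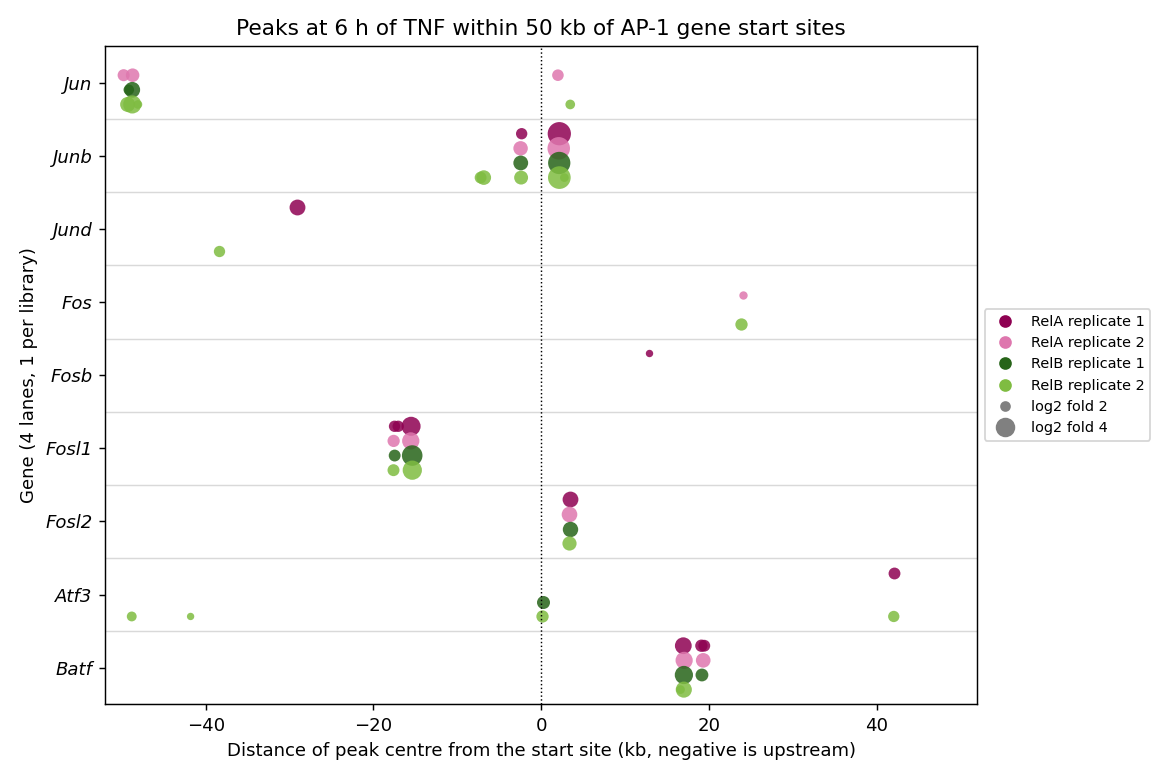
Peaks at 6 h within 50 kb of each AP-1 gene's start site, with distance in kb on the horizontal axis and 1 lane per library for each gene; the area of a point grows with the square of its log2 fold over input. Points of all 4 libraries line up at 2 places near Junb, 2 near Fosl1, and 1 each near Fosl2 and Batf, and the points of Jun and Atf3 line up in at most 3 and 2 libraries.

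Peaks of the 4 libraries at 6 h that overlapped by at least 1 bp were joined into sites. The 53 peaks formed 28 sites, of which 6 had a peak in all 4 libraries, 2 in 3 libraries, 2 in 2 libraries and 18 in 1 library. Over all 14781 sites of the genome, 12.6% were in 4 libraries and 67.9% in 1. The 6 sites belonged to 4 of the 9 genes, where 9.8% of protein-coding genes had such a site. Leaving out replicate 1 of RelA at 6 h raised the count to 5 genes, with Jun added. That library was the one without a peak at the far upstream site of Jun. Over all protein-coding genes it raised the count from 2194 to 2420.

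Among the Jun genes, Junb had the strongest binding and Jun and Jund had weaker or less repeated peaks. Junb, whose protein is a Jun partner that TNF and serum induce, lies at chr8:87500811-87502617 on the minus strand. Its downstream site, chr8:87500423-87500624, was centred 2094 bp from the start and 187 bp past the annotated end of the gene, in intergenic sequence. Its log2 fold was 5.26, 5.09, 5.03 and 5.13, with a mean of 5.13 ± 0.096 (SD, n = 4). All 4 libraries were therefore within a narrow band, and the ChIP reads in the peak were 134, 114, 105 and 107. The peak ranked 4 of 7052 and 9 of 5688 in the RelA lists, and 7 of 5192 and 11 of 6698 in the RelB lists.

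The Junb upstream site, chr8:87504682-87505208, lay 2328 bp before the start, also in intergenic sequence. Its log2 fold was 2.57, 3.27, 3.35 and 3.14, and its mean of 3.08 ± 0.35 (SD, n = 4) was well under that of the downstream site. RelA replicate 1 was the low library and the other 3 lay close together. ChIP reads were 28, 34, 37 and 43. Junb had 3 further sites, all called in RelB replicate 2 alone, of which the 2 farthest upstream lay 6845 and 7223 bp before the start and nearer to the start of Hook2. Within 50 kb of the downstream site there were 8 protein-coding starts, that of Junb included, so a peak assigned to Junb here also lay near other genes.

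Jun, the founding Jun family gene, lies at chr4:94715725-94718913 on the minus strand, and its most repeated peaks were at the edge of the window. The far upstream site, chr4:94767592-94767738, was 48752 bp before the start, in an intron of the non-coding transcript BC042782, and Jun was the only protein-coding start within 50 kb of it. Its log2 fold was 3.06 in RelA replicate 2, 3.57 in RelB replicate 1 and 4.10 in RelB replicate 2, on 15, 36 and 53 ChIP reads. Both RelB libraries were thus higher than the single RelA library with a call.

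A second site of Jun, chr4:94767916-94768396, began after a gap of 177 bases and was called in both RelB libraries, at 2.38 and 3.40. Another followed after 147 bases and was called in RelA replicate 2 alone, at a log2 fold of 2.73. On the side toward the gene, 48078 bp before the start, RelB replicate 2 had a weak peak of its own, at 1.97 on 11 reads. Near the gene itself there were 2 sites, each in 1 library. One lay in the UTR of Jun, 1995 bp from the start, at 2.62 in RelA replicate 2 on 13 reads, and the other 161 bp past the gene's end, at 2.19 in RelB replicate 2 on 13 reads. No library had both.

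The limit of 50 kb cut close to this group of peaks. Just inside it, peaks of Jun at 49164 bp (RelB replicate 1), 49300 bp (RelB replicate 2) and 49780 bp (RelA replicate 2) had log2 folds of 2.38, 3.40 and 2.73. Just outside it, the 3 nearest peaks were also around Jun, at 50978 and 51814 bp in RelA replicate 1 and at 53416 bp in RelB replicate 2, with log2 folds of 2.24, 3.21 and 1.97. The first 2 of these lie on the downstream side.

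Jund, the Jun gene known for steady expression in resting cells, lies at chr8:73221638-73224515 on the plus strand and had 1 peak in each of 2 libraries at different places. RelA replicate 1 had a peak at chr8:73192426-73192517, 29167 bp before the start, at a log2 fold of 3.58 with 16 ChIP reads and 1 input read. RelB replicate 2 had a peak at chr8:73183115-73183444, at 2.56 on 15 reads, which lay in an intron of Pgpep1 and only 301 bp from that gene's start. Neither peak was called in a second library.

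Among the Fos genes, the Fos-like genes Fosl1 and Fosl2 had peaks in every library, and Fos and Fosb, the early-response members that encode the longer activating proteins, did not. Fosl1, which encodes Fra-1, lies at chr19:5447703-5455945 on the plus strand. Its nearer site, chr19:5431934-5432707, was centred 15383 bp before the start. Its log2 fold was 4.31, 3.91, 4.65 and 4.35, with a mean of 4.30 ± 0.31 (SD, n = 4), and ChIP reads were 44, 45, 61 and 53. Both RelB libraries were above both RelA libraries here, with RelB replicate 2 only just above RelA replicate 1.

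The farther Fosl1 site, chr19:5429830-5430360, lay 17608 bp before the start, and its log2 fold of 2.56, 2.77, 2.68 and 2.70 was the weakest of the 6 sites and varied little, with an SD of 0.086 (n = 4). ChIP reads were 20, 34, 41 and 36, over 8, 14, 16 and 15 input reads. Between the sites, RelA replicate 1 had 1 further peak, 189 bases from the farther one, at 2.57 on 11 reads. Both sites were intergenic and nearer to the start of AI837181, which was 7176 bp from the nearer site and 4951 bp from the farther one, and 10 protein-coding starts, that of Fosl1 included, lay within 50 kb of each.

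Fosl2, which encodes Fra-2, lies at chr5:32438845-32460204 on the plus strand and had 1 site. It was in an intron of the gene, 3341 bp from the start, at chr5:32441977-32442395. Its log2 fold was 3.57, 3.53, 3.48 and 3.21, with a mean of 3.45 ± 0.17 (SD, n = 4). ChIP reads fell in the range from 16 to 35, at 35 and 26 for RelA and 17 and 16 for RelB. RelB replicate 2 was the lowest on both measures.

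Fos lies at chr12:86814840-86818223 on the plus strand, and its 2 peaks lay beyond the gene's end with a gap of 55 bases between them. RelB replicate 2 had the first, 23855 bp from the start, at a log2 fold of 2.78 on 19 reads, and RelA replicate 2 the second, 24075 bp from the start, at 1.89 on 14 reads. Because the peaks did not overlap, they counted as 2 sites, and both replicates numbered 1 had none. Fosb, at chr7:19888070-19895394 on the minus strand, had a single peak in RelA replicate 1, 12867 bp from the start, at 1.67 on 12 ChIP reads over 6 input reads. It was the least supported gene of the 9.

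Atf3 and Batf, which encode shorter bZIP proteins that dimerize with Jun proteins and often repress, differed from each other. Atf3, a stress-induced gene, lies at chr1:192994175-193007219 on the minus strand and had the peaks nearest to a start site. RelB replicate 2 had a peak 159 bp from the start, at a log2 fold of 2.78 on 14 reads, and RelB replicate 1 had one 212 bp from the start, at 2.94 on 10 reads with 1 input read. Both were in the annotated UTR and a gap of 17 bases separated them, so that joining peaks by overlap left 2 sites of 1 library each. No RelA library had a peak there.

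Another Atf3 site, chr1:192965079-192965295, was 42032 bp from the start, beyond the gene's end and nearer to Fam71a. It was called in RelA replicate 1 at 2.68 on 17 reads and in RelB replicate 2 at 2.56 on 11 reads. The remaining 2 sites, 41798 and 48814 bp before the start, were in RelB replicate 2 alone, at 1.66 and 2.23. Atf3 therefore had 5 sites and none in more than 2 libraries.

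Batf, best known from lymphocytes, lies at chr12:87027619-87050037 on the plus strand and had its sites inside the gene. The intron site at chr12:87044328-87044952, 17021 bp from the start, had a log2 fold of 3.80, 3.89, 4.12 and 3.65, with a mean of 3.86 ± 0.20 (SD, n = 4). ChIP reads were 41, 43, 45 and 35. The antibodies overlapped, with the highest and the lowest value both from RelB.

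A second intron site of Batf, chr12:87046652-87047233, was 19323 bp from the start and was called in 3 libraries. RelA replicate 1 had 2 peaks in it, at log2 folds of 2.79 and 2.68, RelA replicate 2 had 1 at 3.31 on 36 reads, and RelB replicate 1 had 1 at 2.91 on 13 reads. RelB replicate 2 had no peak there, although it had one, at 1.97 on 11 reads, 83 bases from the first site. Batf was thus the only one of the 9 genes with a site in 4 libraries and another in 3.

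The 18 sites called in 1 library were mostly weaker and less deeply covered than the 6 called in all 4, although the ranges overlapped. Their log2 folds ran from 1.66 to 3.58 on 10 to 19 ChIP reads, against 2.56 to 5.26 on 16 to 134 reads. A call in every list itself favours strong and deeply covered peaks, so this contrast follows at least in part from the grouping. Of the 18, RelB replicate 2 held 11, RelA replicates 1 and 2 held 3 each, and RelB replicate 1 held 1. Over the whole genome RelB replicate 2 held 27.1% of the sites called in 1 library, and RelA replicate 1 held the most, 34.5%. Without RelB replicate 2, the number of sites near the 9 genes was 17 rather than 28.

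The strength of the 6 sites was set beside all 1860 sites of the genome with a peak in every library at 6 h, whose mean log2 fold had a median of 3.19 and an interquartile range from 2.81 to 3.62. The Junb downstream site ranked 3 of 1860. The nearer Fosl1 site ranked 87, the Batf site 279 and the Fosl2 site 647. The Junb upstream site and the farther Fosl1 site, at ranks 1069 and 1542, were under the median. Of all 1860 sites, 17.1% were weaker than the weakest of the 6, and the highest mean of any site was 5.61.

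**Figure D2:**
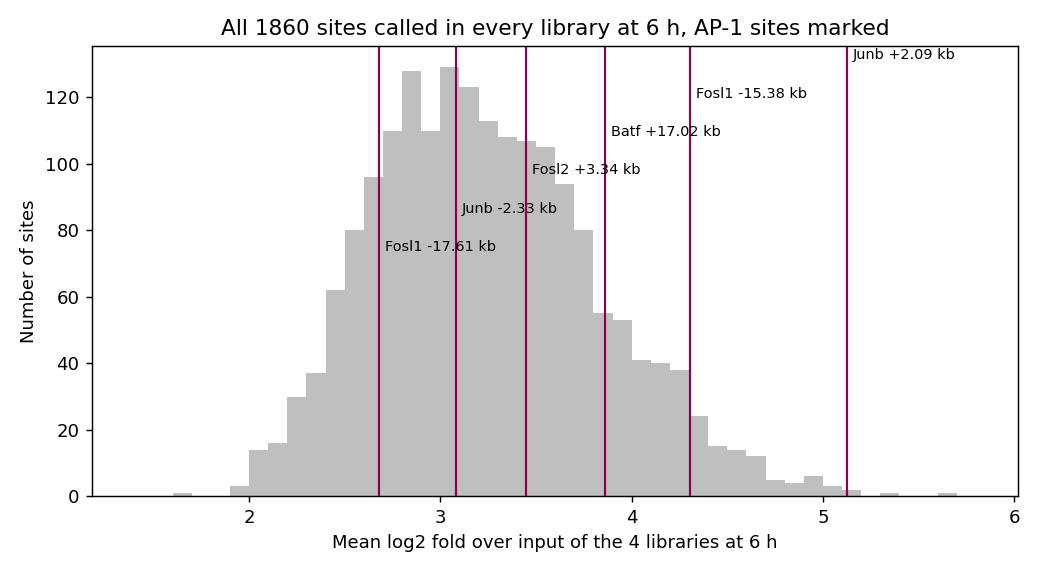
Histogram of the mean log2 fold over input of the 4 libraries at 6 h for the 1860 sites with a peak in every library, with vertical lines at the 6 sites near AP-1 genes. The Junb downstream site, at 5.13, stands in the upper tail, and the farther Fosl1 site, at 2.68, is below the lower quartile of 2.81.

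Whether RelA and RelB differed in strength at these sites was tested with limma across all 1860 sites, with each library centred on its median. Sites called for 1 antibody alone, such as the second site of Jun, could not enter. The requirement of a peak in every library thus favours small differences. Over all sites 11 passed an adjusted p under 0.05, or 0.591%, and none of the 6 sites near AP-1 genes was among them. By limma, 0 of the 6 sites had an unadjusted p under 0.05, where 313 of the 1860 sites (16.8%) did. The count was also 0 in edgeR and in DESeq2 on the window reads, where 13.4% and 2.63% of the 1860 sites did. The largest differences were at the nearer Fosl1 site, where RelA minus RelB was -0.31 (SE 0.28, 95% interval -0.94 to 0.32, limma adjusted p = 0.62), and at the Fosl2 site, where it was 0.29 (SE 0.27, interval -0.31 to 0.89, limma adjusted p = 0.62).

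At the Junb sites, RelA minus RelB was 0.18 downstream (SE 0.26, 95% interval -0.41 to 0.76) and -0.24 upstream (SE 0.31, interval -0.93 to 0.44). It was 0.056 at the farther Fosl1 site (SE 0.27, interval -0.54 to 0.65) and 0.038 at the Batf site (SE 0.29, interval -0.60 to 0.67). The directions at these last 2 sites turned without centring, and they and that at the Junb upstream site turned when 1 library was left out. Over the 6 sites the intervals reached from -0.94 to 0.89 on the log2 scale, so that they do not show that the antibodies gave equal strength.

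**Figure D3:**
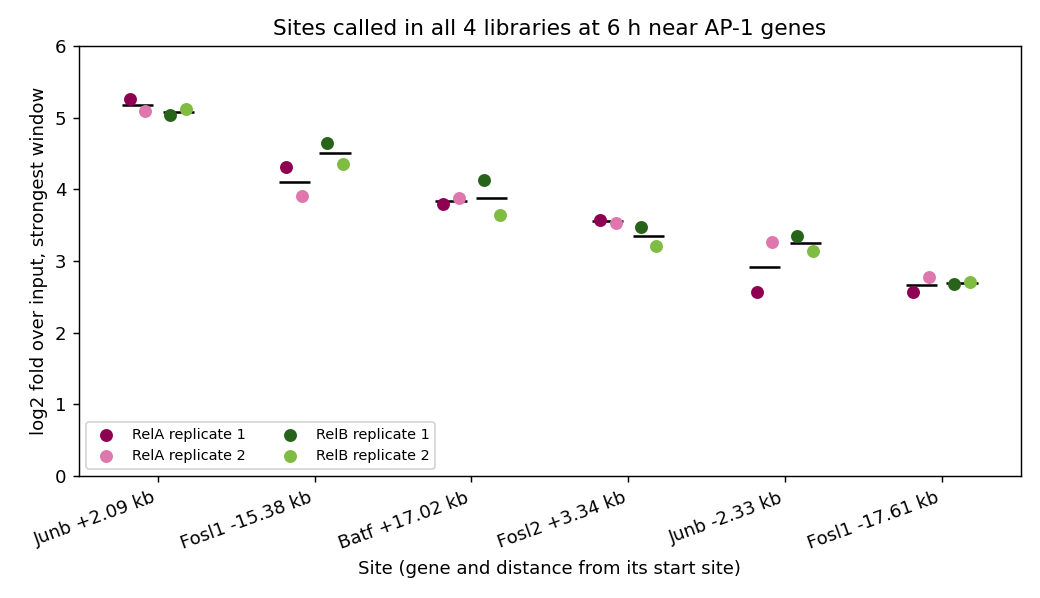
Log2 fold of ChIP over input reads in the strongest window, for each of the 4 libraries at 6 h, for the 6 sites near AP-1 genes that were called in all of them; points are libraries and black lines are the means of the 2 libraries of an antibody. The sites run from 5.13 at the Junb downstream site to 2.68 at the farther Fosl1 site, and the gap between antibodies at each site is small beside the gaps between the strongest and weakest sites.

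**Figure D4:**
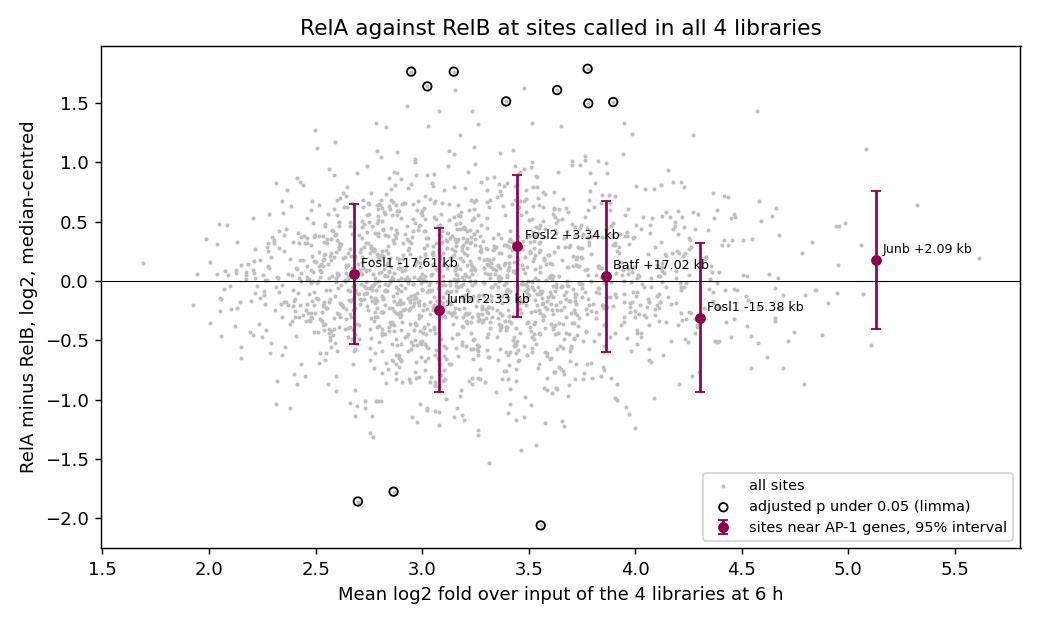
RelA minus RelB in median-centred log2 fold against the mean log2 fold for all 1860 sites, with open circles at the 11 sites with a limma adjusted p under 0.05 and bars giving the 95% interval at the 6 sites near AP-1 genes. All 6 intervals cross 0.

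All 6 of these sites held a match to the κB consensus within 100 bp of their middle, on either strand, where 73.9% of the 1860 sites did. Of the 28 sites 15 held one, or 53.6% (Wilson 95% interval 35.8 to 70.5), where 44.3% of all 14781 sites did. The interval covers counting error only, and it includes the share over all sites. Among the 18 sites of 1 library 7 held a match, where 33.7% of all such sites did. Inside the peaks themselves, the Fosl2 site had a match within all 4 peaks, as did the nearer Fosl1 site and both Junb sites. In the Batf site every match lay within the peaks of 3 libraries, because the peak of RelA replicate 1 was only 29 bases long, and in the farther Fosl1 site within those of 2.

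The AP-1 sequence TGANTCA was found within 100 bp of the middle of 5 of the 28 sites, where 13.6% of all sites held it on either strand. These 5 were both 4-library sites of Fosl1, the far upstream site of Jun, another Jun site and a Junb site. Of the 6 sites in all 4 libraries 2 held it, where 16.5% of the 1860 did. The sequence TGACGTCA was found in 0 of the 28, where 0.325% of all sites held it. The sites in 3 or 4 libraries that held TGANTCA are shown with the 7 bases of the AP-1 sequence in capitals. These bases lay inside the peaks of 3 of 4 libraries in the nearer Fosl1 site. In the farther Fosl1 site they lay inside those of 2 of 4, and in the Jun site inside those of 2 of 3. The closest κB match began after 7 bases in the nearer Fosl1 site, after 13 bases in the Jun site and after 81 bases in the farther Fosl1 site.
Fosl1, nearer site, chr19:5432254-5432283, plus strand: ggtcacagggcTGATTCActgaggagggaa
Fosl1, farther site, chr19:5430039-5430068, plus strand: gtggaagtggcTGAGTCAtgagatgctagc
Jun, far upstream site, chr4:94767589-94767618, plus strand: ttttcaactgcTGACTCAtcttgtaaatcc

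The promoters themselves, from 250 bp before to 50 bp after the start, were also searched in the mm9 genome. A match to the κB consensus was present in 6 of the 9 promoters, those of Atf3, Batf, Fos, Fosb, Fosl1 and Fosl2, where 27.8% of all protein-coding promoters held one. None of the 9 held TGANTCA or TGACGTCA, where 6.93% and 2.32% of promoters did. Of these 6 genes, Atf3 alone had peaks less than 1 kb away from the start. Of the 6 sites in all 4 libraries, 0 lay within 1 kb of any protein-coding start, where 223 of the 1860 sites did. The median distance of the 6 sites to the nearest protein-coding start was 4146 bp, which the choice of sites within 50 kb of a start limits.

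Related genes were counted in the same way, with lists for other bZIP partners, for kinases and phosphatases that act before AP-1, and for other immediate-early genes. No gene of these lists had a peak at 0 h. Among 19 other bZIP genes 7 had a site in all 4 libraries at 6 h, among 19 immediate-early genes 6 did, and among 20 kinases and phosphatases 3 did, where 9.83% of protein-coding symbols had one. The 3 with the strongest sites among the bZIP genes were Creb1, Batf3 and Atf1, with mean log2 folds of 4.30, 4.07 and 3.95. Creb1 encodes a cyclic AMP response factor, and its site was 283 bp before the start. Batf3 encodes a relative of Batf, and its site was 22753 bp before the start.

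Among the immediate-early genes Ier3 had 2 such sites, the only gene of these 3 lists with more than 1, the stronger at a mean log2 fold of 4.06. Zfp36, which encodes an RNA-binding protein that promotes decay of cytokine mRNAs, had 1 at 4.13, and Myc had 1 at 3.91. The 3 kinases and phosphatases were Map3k8 at 2.97, Dusp1 at 2.86 and Map3k7 at 2.83. Map3k7 encodes TAK1, a kinase that acts in both the NF-κB and the AP-1 branch of TNF signaling, and Dusp1 a phosphatase of the kinases that act on AP-1. All 3 were under the genome-wide median of 3.19.

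The gene whose pattern over the 4 libraries was most like that of Junb was sought among protein-coding genes on other chromosomes, by the Euclidean distance between the strongest log2 folds within 50 kb. Cd69 was the closest, at a distance of 0.39, with log2 folds of 4.91, 5.04, 5.04 and 5.29. Slc30a7 and Extl2 followed at 0.47 each and shared 1 site, so they are a single measurement.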

How the data were processed

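The data were 8 peak lists from ChIP-seq of Nfkb2-/- MEFs. Per the labels and the methods, the authors used cutadapt for trimming and Bowtie for alignment to mm9, retained uniquely aligned reads, and ran cisGenome on every library by itself, with input from Nfkb2-/- cells as the control (windows of 200 bases, FDR under 0.1, fold above 2, at least 4 reads). The authors deposited for each peak an FDR, which is a q-value, a log2 fold over scaled input, and unnormalized counts of ChIP and input reads. All 25055 peaks were within these thresholds. Calls depend on depth, and a broad site can be split into several peaks. The labels list 1 input library, so an error in the input would be shared by all 8 lists.

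Start sites were the 5′ ends of the gene records in the GENCODE annotation of mm9, and distances were measured from peak centres. The members and the lists of related genes were chosen with earlier results of these data known. Text names every member and, for each related list, at most the 3 genes with the most sites in all 4 libraries, with ties ordered by mean log2 fold, an order added after the data were examined. Strength was tested with limma 3.58.1 (lmFit and eBayes, Benjamini-Hochberg adjustment), with edgeR 4.0.16 and DESeq2 1.42.0 on window counts as alternatives, in R 4.3.3. Peaks per gene were tested by exact two-sided permutation over libraries, adjusted over 22380 genes. Motifs were searched on both strands of the mm9 genome. The joining of peaks, the distances, the motif search, the permutation test and the strength fits were tested on planted or simulated data. Alternatives covered the FDR, distance, fold, start site, joining rule, centring, motif window and each library left out. The Wilson intervals cover counting error only, and the intervals of RelA minus RelB rest on limma's estimate of the spread between libraries.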

Additional observations from a re-analysis of the deposited data

How the results depend on the processing

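The count of 4 genes with a site in all 4 libraries held at an FDR under 0.01, at 25 and 100 kb, at a log2 fold above 2, with any transcript start and with centres joined within 500 bp, and was 4 to 5 when 1 library was left out. Over all protein-coding genes, the count with a site in all 4 libraries was 2194 at 50 kb, 1204 at 25 kb and 3956 at 100 kb. The number of AP-1 genes with an exact permutation p under 0.05 was 4 to 6 over the alternatives. It was 6 at 100 kb, where the count over all protein-coding genes also rose, from 2737 to 5138. It was 5 without replicate 1 or replicate 2 of RelA at 6 h, where 2992 and 3199 protein-coding genes reached such a p. The number of sites depended more on the settings, with 13 at an FDR under 0.01, 45 at 100 kb and 17 to 27 when 1 library was left out. The share of sites with a κB match was 35.7% within 50 bp (27.7% over all sites of the genome), 60.7% within 200 bp (57.6%), 84.6% at an FDR under 0.01 (60.7%) and 100% among sites in all 4 libraries (73.9%).

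The genome-wide count of 11 sites that differed between RelA and RelB became 42 in edgeR, with or without its filter on low counts, 0 in DESeq2 (49 at an unadjusted p under 0.05), 30 at an FDR under 0.01, 0 with centres joined within 500 bp (327 at an unadjusted p under 0.05), and 0 to 40 when 1 library was left out, with 0 without either RelB library. Such a fit has 1 library on one side, which is assumed to vary like the pair of the other antibody, the only source of the spread. With the replicate number as a block it was 85. Deviations of same-numbered libraries had a correlation of -0.0026. The labels do not say whether libraries with the same number shared a culture, and this correlation cannot decide it. The block called none of the 6 sites near AP-1 genes. The cause of these shifts was not tested. In none of the 12 alternatives did any of the 6 sites pass. RelA minus RelB turned at the farther Fosl1 site without centring (-0.027), in edgeR (-0.0012, with or without the filter) and in DESeq2 (-0.0080), and at the Batf site without centring (-0.045). Leaving out 1 library gave -0.068 to 0.18 at the farther Fosl1 site, -0.22 to 0.30 at the Batf site and -0.62 to 0.13 at the Junb upstream site.

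Total reads per library were unknown, so the smallest detectable signal could not be given. The 18 sites called in 1 library rested on 10 to 19 reads, and the lack of a call in another list does not show that binding was absent.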
